A study of Mus musculus with 6 samples.

Results

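The rod phototransduction cascade was examined in mouse retina through 9 genes chosen by name: the transducin subunits Gnat1, Gnb1 and Gngt1, the phosphodiesterase subunits Pde6a, Pde6b and Pde6g, the channel subunit Cnga1, the arrestin Sag and recoverin (Rcvrn). Of these, 8 could be compared between the groups, among 25202 genes with a value above 0. Both groups were wild type C57BL/6 mice, labelled as 5 weeks old, whose eyes had received NMDA, a glutamate receptor agonist that damages retinal ganglion cells. The NMDA + SCF group (n = 3 libraries) received stem cell factor (SCF), the ligand of the receptor c-kit, in the vitreous 2 days after NMDA. The NMDA + PBS group (n = 3 libraries) received the vehicle at that time. Retinas were taken a week later, and no library of an eye without NMDA was compared. The comparison asks whether the RNA of the rod cascade differed with SCF in the injured retina.

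In rods, the absorption of light leads to activation of the G protein transducin. The α subunit of transducin then releases phosphodiesterase from its inhibitory γ subunits, cyclic GMP is broken down, and the cGMP-gated channels of the outer segment close. Arrestin and recoverin act in the shut-off of the response and in its adjustment to calcium, and defects in several of these genes cause night blindness or retinal degeneration.

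Expression was measured as FPKM, which divides fragments by the length of the transcript and the size of the library, and was summed per gene. Values are given in the order of replicates 1, 2 and 3. The NMDA + PBS libraries had 44925938, 46949578 and 48783182 clean reads, and the NMDA + SCF libraries had 48498182, 48321764 and 46328716. Between 3404322 and 4440570 fragments per library stood behind the FPKM values. The files used 2 lists of transcripts: list A for the 3 NMDA + SCF libraries and for replicate 1 of NMDA + PBS, and list B for the other 2 NMDA + PBS libraries. Sums were therefore taken over the 46933 Ensembl transcripts in both lists. Since list B held NMDA + PBS libraries only, values within list A, with 1 control library and no test, are given beside the log2 fold changes of the genes. The labels do not say whether libraries came from separate mice, so p values measure the spread between libraries, which may be technical.

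No rod cascade gene passed the test. With limma on log2(FPKM + 1), 0 of the 8 genes had an adjusted p of at most 0.05, as did 0 of all 25202 genes (0%). The smallest adjusted p among the 8 genes was 0.536 (limma). Before adjustment, 2 of the 8 genes had p at or below 0.05, against 9.22% of all genes. These were Pde6b, higher with SCF as were 4.33% of all genes at that p, and Gnb1, lower with SCF as were 4.9%. With voom on recovered fragments, 3 of the 8 genes had p at or below 0.05 before adjustment, against 10.4% of all genes, and 2 genes of the whole table after it. Over the other alternatives this count of members was 0 to 3, and most often 1, while 1214 to 4404 of all genes had such a p. The 3 members without NMDA + PBS replicate 1 went with the 4404 genes. For 3 of the 8 genes the groups were apart, that is, did not overlap, against 14.1% of all genes. Pde6b and Pde6g were higher in every NMDA + SCF library, a pattern found in 7.63% of all genes and in 20.7% of the 4508 genes with a mean FPKM of at least 10. Gnb1 was lower in every NMDA + SCF library, which held for 6.45% of all genes and for 4.19% of those 4508 genes. The log2 fold change was positive for 4 genes and negative for 4, with a median of -0.05, beside -0.01 over all genes and 0.22 over the genes with a mean FPKM of at least 10. The RNA of all retinal cells was measured together, so a difference in the number of rods and one in RNA per rod cannot be told apart.

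**Figure D1:**
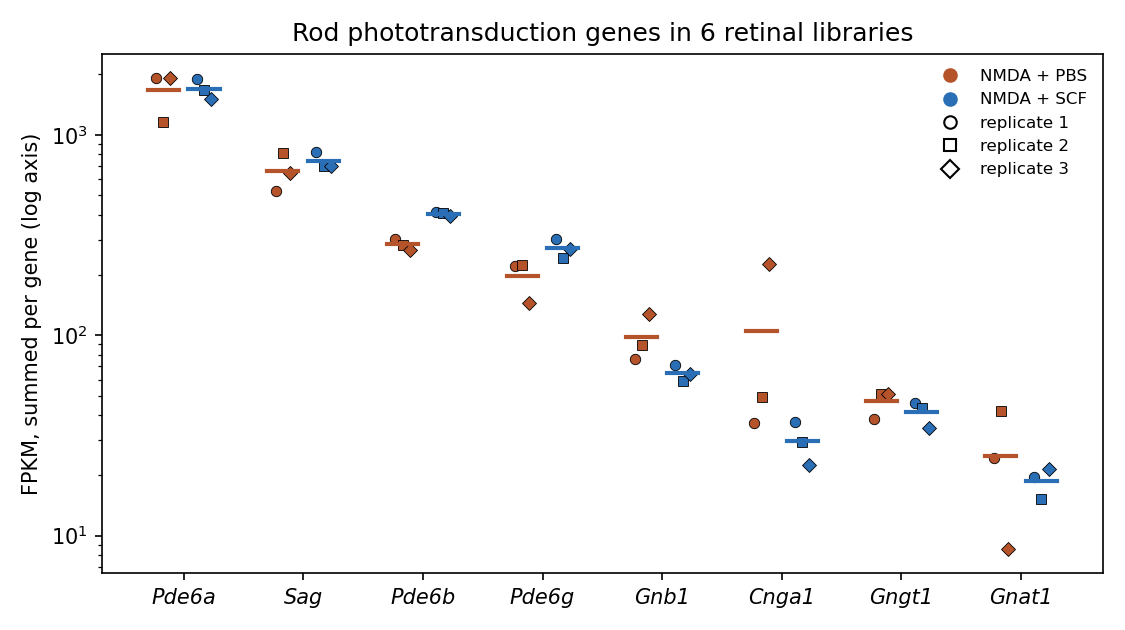
FPKM summed per gene (log axis) of the 8 comparable rod cascade genes in 6 retinal libraries, with 1 point per library, the marker shape giving the replicate and the bar the group mean (n = 3). The groups were apart for Pde6b, Pde6g and Gnb1, and for Cnga1 1 NMDA + PBS library lay at 227 FPKM.

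Transducin is made of an α subunit, which carries the signal, and a βγ pair, with which it rejoins at rest. Gnat1, the rod α subunit, had 24.5, 41.9 and 8.54 FPKM with NMDA + PBS and 19.7, 15.3 and 21.5 FPKM with NMDA + SCF. The highest and the lowest library both belonged to NMDA + PBS, and the groups overlapped. Only 27 to 108 fragments per library stood behind these values. The log2 fold change was -0.16 (SE 0.508, limma adjusted p = 0.926), with a 95% interval from -1.35 to 1.04, and it was 0.33 without NMDA + PBS replicate 2 and -0.38 within list A.

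Gnb1, the β subunit, had 76.2, 89.6 and 128 FPKM with NMDA + PBS and 71.3, 58.8 and 64.2 FPKM with NMDA + SCF. Every NMDA + SCF library lay below every NMDA + PBS library, with the nearest pair at 71.3 and 76.2 FPKM. Unlike the rod-specific α and γ subunits, this β subunit is also used by many other cells. For Gnb1 the log2 fold change was -0.56 (SE 0.224, limma unadjusted p = 0.0402, adjusted p = 0.536). It was -0.35 without NMDA + PBS replicate 3, and -0.24 against the list A control alone. Gngt1, the rod γ subunit, lay between 34.6 and 51.2 FPKM and the groups overlapped. Its log2 fold change of -0.17 (SE 0.200, limma adjusted p = 0.761) ran from -0.31 to -0.06 with single libraries left out and was 0.10 within list A. It was -1.21 with all listed transcripts, where the coding transcript adds to list B libraries only.

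Rod phosphodiesterase is a pair of catalytic subunits, α and β, held inactive by γ subunits. Pde6b, the β subunit, had 301, 283 and 267 FPKM in the NMDA + PBS libraries and 414, 405 and 393 FPKM in the NMDA + SCF libraries. The groups did not overlap, and each group varied little, at 284 ± 16.6 FPKM with NMDA + PBS and 404 ± 10.5 FPKM with NMDA + SCF (SD, n = 3). Its log2 fold change was 0.51 (SE 0.169, 95% interval 0.11 to 0.91), with an unadjusted p of 0.0186 and an adjusted p of 0.536 in limma. It was 0.38 with upper quartile scaling and 0.43 with median-of-ratios scaling. Within list A it was 0.42, with all 3 NMDA + SCF libraries above the control. That held for 3 of the 8 genes (37.5%), for 23.8% of all genes and for 43.5% of those with a mean FPKM of at least 10.

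Pde6g, the inhibitory γ subunit, had 223, 224 and 145 FPKM with NMDA + PBS and 302, 242 and 270 FPKM with NMDA + SCF. The groups did not overlap, although NMDA + SCF replicate 2 was close to NMDA + PBS replicates 1 and 2. On the log2 scale the difference was 0.48 (SE 0.228, limma adjusted p = 0.545) and 0.28 within list A. Pde6a, the α subunit, had 1930, 1155 and 1930 FPKM with NMDA + PBS and 1889, 1676 and 1510 FPKM with NMDA + SCF. NMDA + PBS replicate 2 was the lowest library, and the other 5 lay between 1510 and 1930 FPKM. The log2 fold change of Pde6a, 0.05 (SE 0.302, limma adjusted p = 0.964), was -0.075 with upper quartile scaling, -0.027 with median-of-ratios scaling, -0.20 without NMDA + PBS replicate 2, -0.032 without NMDA + SCF replicate 1 and -0.20 within list A.

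The FPKM ratio of Pde6a to Pde6b was 6.42, 4.08 and 7.22 in the NMDA + PBS libraries and 4.57, 4.13 and 3.84 in the NMDA + SCF libraries. It was above 6 in 2 NMDA + PBS libraries, while NMDA + PBS replicate 2 lay within the range of the NMDA + SCF libraries. The ratio of Pde6b to Pde6g varied less, from 1.26 to 1.85 over the 6 libraries. These are ratios of unlike transcripts. Pde6a rested on its coding transcript, Pde6b on transcripts annotated with a retained intron and Pde6g on a processed transcript. They do not give the ratio of the coding RNA of the subunits.

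Cnga1, a subunit of the cGMP-gated channel, had 36.5, 49.4 and 227 FPKM with NMDA + PBS and 37.0, 29.2 and 22.6 FPKM with NMDA + SCF. NMDA + PBS replicate 3 stood far above the other 5 libraries, and the groups overlapped. For Cnga1 the log2 fold change was -1.33 (SE 0.633, limma adjusted p = 0.545), -0.54 without that library and -0.32 within list A. In NMDA + PBS replicate 3, 152 of the 227 FPKM came from the protein-coding transcript ENSMUST00000087213, with 1852 fragments. That transcript had 107 and 92 fragments in the other NMDA + PBS libraries and 32 to 46 in the NMDA + SCF libraries.

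Sag, the rod arrestin that helps to end the light response, had 523, 811 and 644 FPKM with NMDA + PBS and 820, 700 and 699 FPKM with NMDA + SCF. The groups overlapped through NMDA + PBS replicate 2. The log2 fold change was 0.19 (SE 0.238, limma adjusted p = 0.786), 0.03 without NMDA + PBS replicate 1 and 0.50 within list A. Recoverin, a calcium sensor of photoreceptors, was in list B only, so its groups could not be compared. Its level was 2957 FPKM in NMDA + PBS replicate 2 and 2631 FPKM in replicate 3.

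In the order of their mean FPKM over the 6 libraries, Pde6a (1682 ± 307, SD) was followed by Sag (699 ± 111), Pde6b (344 ± 67.0), Pde6g (234 ± 53.2), Gnb1 (81.3 ± 25.1), Cnga1 (67.0 ± 79.0), Gngt1 (44.0 ± 6.78) and Gnat1 (21.9 ± 11.3). The ranges of neighbours in this order were apart for Pde6a and Sag, for Sag and Pde6b and for Pde6g and Gnb1. They overlapped for the other pairs. Pde6b exceeded Pde6g in each of the 6 libraries, whereas Cnga1 exceeded Gngt1 in 1 library only, NMDA + PBS replicate 3. For most of these genes the level rests on transcripts other than the coding one, so the order is one of the transcripts compared.

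For 6 of the 8 genes a protein-coding transcript was among those compared. The transcript with the most FPKM was nevertheless of another type in 4 of these 6, Gnat1, Gnb1, Pde6g and Sag, compared with 2647 of 12065 protein-coding genes with a coding transcript compared (21.9%). For Pde6b and Gngt1 no coding transcript was in both lists. That of Gngt1, in list B only, was above the compared one, at 86.3 and 116.5 FPKM beside 51.1 and 51.2 FPKM. Over all 8 genes, 67.3 to 80.9% of the fragments per library were on protein-coding transcripts and 12.98 to 22.9% on transcripts annotated with a retained intron. Over all genes of the table these shares were 83.3 to 85.3% and 4.35 to 6.93%. The coding fragments of the 8 genes came mostly from Pde6a, whose full coding transcript held 21026 to 39246 per library. Cnga1 also had 92.2 to 98.3% of its fragments on coding transcripts. In the other 6 genes the coding share was 3.76 to 6.94%, and the share with a retained intron was 64.2 to 75.9%.

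The protein-coding transcript of Gnat1 (ENSMUST00000010205) had 0 to 2 fragments per library and that of Pde6g (ENSMUST00000026452) had 0 to 3, where a count of 0 allows up to 3. The coding transcript of Pde6b (ENSMUST00000031456) was in list B only, with 0 and 2 fragments. These 3 transcripts had few bases that no other annotated transcript of their gene holds: 81 of 2328 in Gnat1, 48 of 900 in Pde6g and 35 of 2799 in Pde6b. In Pde6a there were 2425 of 4588 such bases. Over all genes, 81.7% of the 2580 listed protein-coding transcripts with fewer than 100 such bases had a mean below 1 FPKM, as did 69.5% of the 5312 with 100 or more but fewer than 500, and 38.9% of the 8526 with 500 or more. The other 4 compared coding transcripts of the 8 genes with fewer than 100 such bases went both ways. In Cnga1, ENSMUST00000201463 had 22 such bases and 0 to 0.301 FPKM, ENSMUST00000087213 had 0 and 3.36 to 152 FPKM, and ENSMUST00000135701 had 53 and 0 to 15.8 FPKM, from 0 to 11 fragments. In Sag, ENSMUST00000177757 had 10 and 7.82 to 41.4 FPKM.

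**Figure D2:**
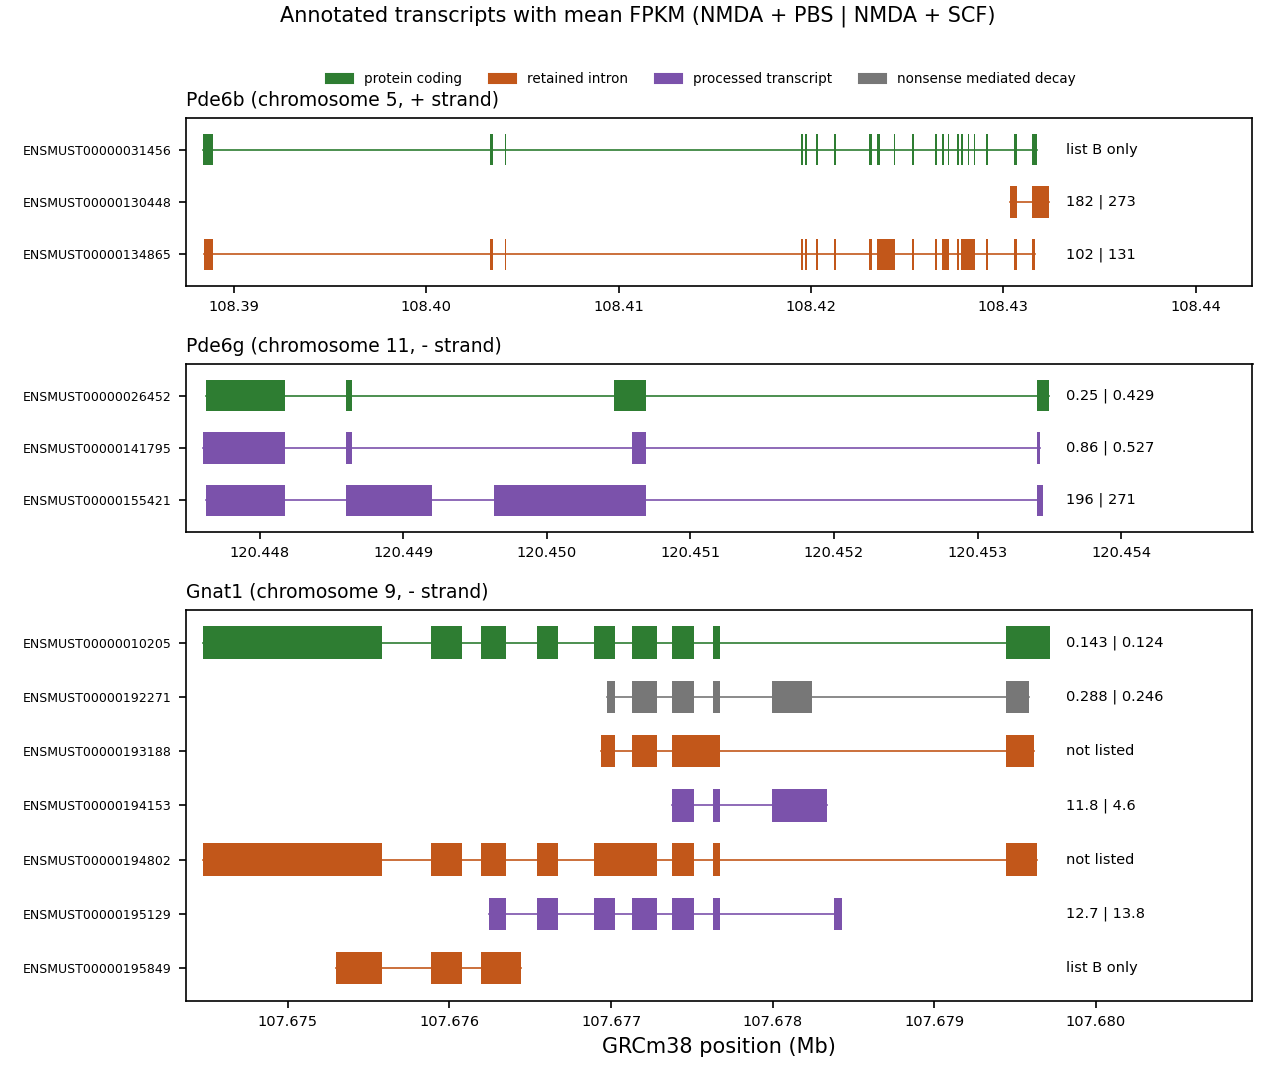
Annotated transcripts of Pde6b, Pde6g and Gnat1 on GRCm38 (x axis, position in Mb), with boxes for exons, colours for the annotated type and, at the right, mean FPKM with NMDA + PBS and NMDA + SCF (n = 3 each) for transcripts in both lists, the others being marked as in list B only or not listed. The values of Pde6b and Pde6g lay on transcripts that keep intronic bases, and the coding transcripts of Pde6g and Gnat1 were below 1 FPKM.

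The value of Pde6b was the sum of 2 transcripts with retained introns. ENSMUST00000130448 (chr5:108430377-108432397, + strand, GRCm38) had 202, 169 and 174 FPKM with NMDA + PBS and 266, 292 and 260 FPKM with NMDA + SCF. ENSMUST00000134865 (chr5:108388426-108431667) had 98.5, 114 and 93.5 FPKM with NMDA + PBS and 148, 114 and 132 FPKM with NMDA + SCF. The groups were apart for the first transcript and overlapped for the second. Their log2 fold changes were 0.59 (SE 0.175, limma adjusted p = 0.591) and 0.36 (SE 0.188, limma adjusted p = 0.606).

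The second of these transcripts keeps 4 of the 21 introns of the coding transcript whole, 1400 intronic bases in all, and the first keeps 173 intronic bases and runs 654 bases past the end of the coding transcript. The boundaries show which bases set them apart from the coding transcript, with exon in capitals and kept intron in lower case, from GENCODE M21 on GRCm38, + strand. The first line is the end of coding exon 10 of 22 at chr5:108423554-108423613, and the second the start of coding exon 21 at chr5:108430520-108430579.
ENSMUST00000134865: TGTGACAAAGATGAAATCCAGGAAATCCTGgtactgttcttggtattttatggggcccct
ENSMUST00000130448: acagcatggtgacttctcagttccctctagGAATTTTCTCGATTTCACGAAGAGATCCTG

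Pde6g rested on 1 processed transcript, ENSMUST00000155421 (chr11:120447624-120453452, − strand), which held 99.2 to 99.9% of its FPKM per library. It had 221, 222 and 144 FPKM with NMDA + PBS and 301, 242 and 268 FPKM with NMDA + SCF, and the groups were apart. It carries 1396 bases that are intronic in the coding transcript. Behind coding exon 2 of 4 it reads on for 836 intronic bases, and the last 29 bases of that exon occur 4 times again among them. The boundary at chr11:120450437-120450496 is shown for this repeat, read on the − strand, with exon in capitals and kept intron in lower case.
ENSMUST00000155421: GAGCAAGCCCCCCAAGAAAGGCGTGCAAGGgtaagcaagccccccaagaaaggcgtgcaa

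Of 29 transcripts of the 8 genes, 15 had a positive log2 fold change, and the adjusted p was at or below 0.05 for 0 of them (limma over 45261 transcripts, where it was so for 0%). Before adjustment, p was at or below 0.05 for 7 of the 29, against 7.98% of all transcripts, and 3 of these 7 belonged to Cnga1. Transcripts of a gene share their bases and are not independent. The groups were apart for 4 transcripts higher with NMDA + SCF (6.32% of all transcripts) and 5 lower (6.79%). The 3 Cnga1 transcripts were among the lower: ENSMUST00000087213 (-2.34 on the log2 scale), ENSMUST00000135701 (-1.70) and ENSMUST00000202230 (-0.99). ENSMUST00000135701 had only 1 to 11 fragments with NMDA + PBS and 0 to 1 with NMDA + SCF. For ENSMUST00000202230 these were 21 to 42 and 7 to 12. The main coding transcript of Sag, ENSMUST00000077772, was among the higher, with 52.5, 59.1 and 44.0 FPKM with NMDA + PBS and 65.9, 74.6 and 75.7 FPKM with NMDA + SCF. Its log2 fold change was 0.47 (SE 0.189, limma adjusted p = 0.591). In Gnb1, the retained-intron transcripts ENSMUST00000175688 (-0.81) and ENSMUST00000175705 (-0.97) were lower with NMDA + SCF on the log2 scale, whereas ENSMUST00000176308 (-0.03) and the coding ENSMUST00000176411 (-0.03) overlapped.

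Among 15 further genes of rod phototransduction, 12 could be compared. Of these, 9 had a positive and 3 a negative log2 fold change, with a median of 0.15, and the adjusted p was at or below 0.05 for 0 of them (limma). Of all genes with a mean FPKM of at least 10, 69.1% had a positive log2 fold change, with a median of 0.22. Before adjustment, 1 of the 12 had p at or below 0.05, against 9.22% of all genes. The groups were apart for 3 genes higher with NMDA + SCF, against 7.63% of all genes and 20.7% of those with a mean FPKM of at least 10. They were apart for 1 gene lower with NMDA + SCF, against 6.45% and 4.19%. Unc119, which carries the transducin α subunit through the rod, had 97.0, 92.3 and 59.2 FPKM with NMDA + PBS and 141, 156 and 164 FPKM with NMDA + SCF. Every NMDA + SCF library was above the NMDA + PBS libraries, at a log2 fold change of 0.91 (SE 0.226, limma unadjusted p = 0.00454, adjusted p = 0.536) and 0.65 within list A. This value came from the retained-intron transcript ENSMUST00000154700. Another, ENSMUST00000155471, was in list B only, at 160 and 83.8 FPKM. With all listed transcripts NMDA + PBS replicate 2 was the highest library, at 252 FPKM, and the log2 fold change was 0.02.

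Reep6, a membrane protein needed by rods, was also higher in every NMDA + SCF library (0.28 on the log2 scale, 0.33 within list A), and Pdc, which binds transducin βγ, was lower in each (-0.51, and -0.34 within list A). Rgs9bp, the anchor of the transducin GTPase complex, was the most abundant of the 12, at 648 to 931 FPKM, and its groups overlapped. Cngb1, the partner of Cnga1 in the channel, lay at 102 ± 22.6 FPKM with NMDA + PBS and 134 ± 10.5 FPKM with NMDA + SCF (SD, n = 3), and overlapped as well.

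The transcription factors of rod identity did not share a direction. Nrl had 104, 125 and 85.0 FPKM with NMDA + PBS and 161, 134 and 152 FPKM with NMDA + SCF. Crx, which acts in rods and cones, had 16.6, 18.5 and 19.96 FPKM with NMDA + PBS and 13.2, 11.2 and 9.11 FPKM with NMDA + SCF. Nrl was higher and Crx lower in every NMDA + SCF library, at log2 fold changes of 0.52 (SE 0.197) and -0.68 (SE 0.204), each with a limma adjusted p of 0.536. Within list A they were 0.51 and -0.55. Of all genes, 7.63% were higher and 6.45% lower in this way, and 20.7% and 4.19% of those with a mean FPKM of at least 10. The value of Nrl was that of the retained-intron transcript ENSMUST00000228351. In Crx, the coding transcript ENSMUST00000132563 was lower (-1.13 on the log2 scale) and the coding ENSMUST00000174318 was not (0.00). Only 64 to 123 fragments per library stood behind Crx. ENSMUST00000132563 had 31, 33 and 52 of them with NMDA + PBS and 21, 12 and 10 with NMDA + SCF. Nr2e3 overlapped, at 2.47 to 6.30 FPKM.

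Of 10 cone counterparts, 8 could be compared: 3 had a positive and 5 a negative log2 fold change, with a median of -0.08 and 0 at an adjusted p of at most 0.05 (limma). Before adjustment, 1 of the 8 had p at or below 0.05, beside the same 9.22%. It was Cngb3, a cone channel subunit, with 0.125, 22.4 and 20.2 FPKM in the NMDA + PBS libraries and 0.062, 0 and 0 FPKM in the NMDA + SCF libraries. Its high values were those of list B, and the list A control was as low as the NMDA + SCF libraries. Opn1sw, the short-wavelength cone pigment, was also lower in every NMDA + SCF library (-0.43 on the log2 scale, -0.19 within list A), as were 6.45% of all genes. Over the 8 cone genes the summed FPKM was 93.0, 245 and 142 with NMDA + PBS and 129, 148 and 166 with NMDA + SCF, compared with 3151, 2705 and 3400 and with 3597, 3171 and 3015 for the rod cascade.

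The labelled tissue was checked against markers of its cell types. The most abundant Müller glia marker was Glul (1960 to 3899 FPKM), that of bipolar cells Prkca (116 to 157), of amacrine cells Slc32a1 (87.4 to 148), of horizontal cells Calb1 (44.2 to 65.6) and of ganglion cells Sncg (45.5 to 222). Summed over their lists, bipolar markers (6 of 8 measured) lay between 255 and 322 FPKM, amacrine markers (7 of 7) between 232 and 330, horizontal markers (3 of 4) between 52.4 and 76.3, and ganglion cell markers (7 of 8) between 227 and 464. Müller glia markers (6 of 7) lay between 3034 and 4008 FPKM. Of these, Dkk3, named here after its values were seen, followed the transcript list, with 980 and 1007 FPKM in the list B libraries and 0.0856 to 0.262 FPKM in those of list A. Without it the Müller glia sum was 4008, 2055 and 2275 FPKM with NMDA + PBS and 3252, 3288 and 3103 FPKM with NMDA + SCF. No marker measured in all 6 libraries was at 0 throughout. The summed FPKM of the rod cascade was of the same order as that of the Müller glia list, most of which was Glul. Pde6a alone made up 1155 to 1930 FPKM of the rod sum. Without Pde6a that sum was 1221, 1550 and 1470 FPKM with NMDA + PBS and 1709, 1494 and 1505 FPKM with NMDA + SCF.

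Markers of lens, pigment epithelium, microglia and endothelium were read in the same libraries. Lens markers (10 of 11 measured, Crygs the most abundant) summed to 26.6, 341 and 332 FPKM with NMDA + PBS and to 5477, 669 and 11896 FPKM with NMDA + SCF. All 10 had a positive log2 fold change. Pde6b was 405 FPKM in NMDA + SCF replicate 2, the library with the lowest lens sum of its group, beside 414 and 393 FPKM in the others. Pde6g and Gnb1 were the lowest of their group in that library, at 242 beside 302 and 270 FPKM and at 58.8 beside 71.3 and 64.2 FPKM. Pigment epithelium markers (7 of 8, Ttr the most abundant) summed to 904, 491 and 228 FPKM with NMDA + PBS and to 796, 1020 and 1057 FPKM with NMDA + SCF. Microglia markers (5 of 8, C1qa the most abundant) summed to 140, 291 and 35.9 FPKM and to 219, 298 and 302 FPKM, and endothelial markers (5 of 5, Cldn5 the most abundant) to 86.7, 73.3 and 38.5 FPKM and to 84.1, 111 and 111 FPKM. The part of these cells in the differences of Pde6b, Pde6g and Gnb1 was not tested.

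The 8 genes did not share a profile over the 6 libraries. Centred on its own mean, log2(FPKM + 1) ran from -1.02 to 2.26 in Cnga1, from -1.12 to 1.05 in Gnat1 and from -0.34 to 0.29 in Pde6b. Among the 4500 other genes with a mean FPKM of at least 10, the 5 nearest to the median profile of the 8 genes were AC126804.1, Meaf6, Mfap3l, Eif4g2 and Vps29, at root mean square distances of 0.04 to 0.06 on the log2 scale. That median profile was nearly flat, with a root mean square of 0.09 beside a median of 0.32 over those 4500 genes. The nearest genes were therefore genes that varied little. Meaf6, for example, lay between 45.7 and 56.3 FPKM in all 6 libraries.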

How the data were processed

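RNA-seq values of 6 mouse retinal libraries were analysed. The authors deposited FPKM values for single transcripts, together with a table of read totals and, as a percent, the share of high-quality bases per library. The aligner and the counter are not given in the sources used here. The submitters' processing notes list mm9, whereas 98.2% of the 63313 Ensembl transcripts found in GENCODE M21 had its GRCm38 positions, so GRCm38 coordinates are given. FPKM times transcript length was whole (within 0.05 of a fragment) for 98.4 to 98.5% of values, and the fragments so recovered gave 14.1 to 18.2% of clean read pairs. Transcripts of a merged assembly (8.85 to 11.4% of the FPKM) were left out.

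Genes were compared with limma 3.58.1 (R 4.3.3, log2(FPKM + 1), variance trend, two-sided, Benjamini-Hochberg over all genes, condition only). Log2 fold changes on that scale understate the change of low genes. The paper's rule (fold change of at least 2, adjusted p of at most 0.001) and an adjusted p of at most 0.05 were used. An exact test of 3 against 3 libraries cannot go below p = 0.1. Other rod genes, rod regulators, cone genes and 9 marker lists were described by counts and medians. Named were the 9 members, any gene of the rod, regulator and cone lists, the most abundant gene of each marker list, markers at 0, and the 5 genes with the nearest profile. The result of a single gene of the rod list is not reported here, although the counts include it. The members and lists were chosen with earlier results of these data known. Alternatives were a pseudocount of 0.1, a mean FPKM of at least 1, upper quartile and median-of-ratios scaling, all listed transcripts, voom on recovered fragments, a replicate block, each library left out and list A only. Floors cover counting error only, whereas the 95% intervals are those of limma and rest on the spread between libraries. The fit was tested on simulated data. Python 3.11.15 was used for tables and plots.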

Additional observations from a re-analysis of the deposited data

Results flagged for a closer look

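Member transcripts that were in list B only had signal in data outside the comparison, since no NMDA + SCF library had values for them. These were picked out where both libraries of that list had more than 3 fragments. The protein-coding transcript of Rcvrn (ENSMUST00000021290) had 2957 FPKM in NMDA + PBS replicate 2 and 2631 FPKM in replicate 3, from 12232 and 12150 fragments. The protein-coding transcript of Gngt1 (ENSMUST00000031673) had 86.3 and 116.5 FPKM in these libraries, from 406 and 612 fragments, above the 51.1 and 51.2 FPKM of the Gngt1 transcript that was compared. The retained-intron transcript ENSMUST00000195849 of Gnat1 had 3.12 and 2.17 FPKM, from 9 and 7 fragments.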

How the results depend on the processing

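In the 13 alternatives with a test over genes, 0 rod cascade genes and 0 other rod genes had an adjusted p of at most 0.05 (limma or voom), and the smallest adjusted p of a member was 0.0997. The median log2 fold change of the members lay between -0.17 and 0.11 over 14 alternatives, within the spread between libraries (0.203). Of 112 member values, 7 reversed, in 3 genes. Gnat1 was 0.33 without NMDA + PBS replicate 2 and ranged from -0.75 to 0.33 with single libraries left out, and Gngt1 was 0.10 within list A and kept its sign at -1.21 with all listed transcripts. Pde6a was -0.075 with upper quartile scaling, -0.027 with median-of-ratios scaling, -0.20 without NMDA + PBS replicate 2, -0.032 without NMDA + SCF replicate 1 and -0.20 within list A, and from -0.20 to 0.17 with single libraries left out. With single libraries left out, Gnb1 ran from -0.72 to -0.35, Gngt1 from -0.31 to -0.06, Pde6b from 0.47 to 0.55, Pde6g from 0.28 to 0.59, Cnga1 from -1.84 to -0.54 and Sag from 0.03 to 0.35. Scaling moved the genes whose groups were apart. With upper quartile and median-of-ratios scaling, Pde6b was 0.38 and 0.43, Pde6g 0.36 and 0.40, and Gnb1 -0.68 and -0.64. The cause was not tested. Over all genes, voom on recovered fragments gave 2 genes at an adjusted p of at most 0.05, where limma gave 0. With single libraries left out, that count ranged from 0 to 849, the count at 2-fold or more with an adjusted p of at most 0.001 from 0 to 55, and that of cone genes from 0 to 1, each highest without NMDA + PBS replicate 1, where all remaining control libraries have list B. Libraries of the same number did not deviate together (correlations -0.05, -0.06 and -0.08), and no library correlated best with its own number. With 3 libraries per group and values this near 0, these correlations cannot decide whether the numbers pair libraries. With the replicate block 0 genes were called, 0 members had an unadjusted p of at most 0.05 (2 without the block), beside 1856 of all genes (2324 without it), and the member median was -0.05. Gnat1 had 27 to 108 fragments per library.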
